A study of Mus musculus with 6 samples.

Results

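Cultured cells selected from mouse liver for CD31, an endothelial surface marker, were compared between libraries labelled male and female for 10 genes of growth arrest. These were Trp53 and its feedback inhibitor Mdm2, the cyclin-dependent kinase (CDK) inhibitor genes Cdkn1a, Cdkn1b, Cdkn2a, Cdkn2b and Cdkn2c, the cyclin G1 gene Ccng1, and the stress genes Gadd45a and Gadd45b. They were taken by symbol from the deposited table, and all 10 were among its 13595 genes. The RNA came from primary liver cells of C57BL6/J mice, 4 weeks old, in 3 libraries labelled male and 3 labelled female, with replicate numbers 4, 5 and 6 in each sex. Cells of both sexes received indoxyl sulfate at 100 µM, a tryptophan metabolite and ligand of the aryl hydrocarbon receptor (AHR), together with hypoxia and nutrient deprivation for 6 hours. Cells without this treatment were not analysed here, so the label of sex under treatment is the one contrast. The labels do not say whether a replicate is a mouse, an isolation or a well, or whether animals were pooled, so p-values may measure only technical spread between these libraries.

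The p53 protein is a transcription factor that is kept low by Mdm2, a ubiquitin ligase whose own gene p53 induces. When DNA damage or another stress stabilises p53, it induces Cdkn1a (p21), Ccng1, Gadd45a and genes of apoptosis and DNA repair. CDK inhibitors of the Cip/Kip family, among them Cdkn1a and Cdkn1b (p27), bind cyclin-CDK complexes. Those of the Ink4 family, Cdkn2a, Cdkn2b and Cdkn2c, bind CDK4 and CDK6 and keep the RB protein active. The Cdkn2a locus also encodes Arf, which binds Mdm2 and so links the locus to p53.

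Upstream sequence is shown for the 4 p53-induced genes of the set that hold a p53 half-site in the 250 bases before a RefSeq start (build GRCm38.p6), because the RNA levels of these genes did not move together. Capitals mark the half-sites, and each sequence reads 5′ to 3′ on the gene's own strand.
Cdkn1a, chr17:29090729-29090978, plus strand: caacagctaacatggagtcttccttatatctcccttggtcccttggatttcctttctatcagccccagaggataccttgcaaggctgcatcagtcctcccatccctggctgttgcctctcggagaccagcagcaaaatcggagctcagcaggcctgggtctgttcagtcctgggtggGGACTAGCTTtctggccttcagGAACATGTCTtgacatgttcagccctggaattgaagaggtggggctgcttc
Ccng1, chr11:40755287-40755536, minus strand: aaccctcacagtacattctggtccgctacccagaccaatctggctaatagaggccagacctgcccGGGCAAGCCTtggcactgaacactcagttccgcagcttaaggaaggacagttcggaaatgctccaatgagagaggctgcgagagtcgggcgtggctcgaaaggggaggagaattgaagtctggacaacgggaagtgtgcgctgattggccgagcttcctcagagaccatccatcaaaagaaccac
Mdm2, chr10:117710759-117711008, minus strand: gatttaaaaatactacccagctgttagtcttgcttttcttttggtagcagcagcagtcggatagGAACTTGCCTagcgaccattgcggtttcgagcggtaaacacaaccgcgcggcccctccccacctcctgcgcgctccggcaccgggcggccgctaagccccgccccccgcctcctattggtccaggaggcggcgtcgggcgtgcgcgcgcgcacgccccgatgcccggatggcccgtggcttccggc
Gadd45a, chr6:67037408-67037657, minus strand: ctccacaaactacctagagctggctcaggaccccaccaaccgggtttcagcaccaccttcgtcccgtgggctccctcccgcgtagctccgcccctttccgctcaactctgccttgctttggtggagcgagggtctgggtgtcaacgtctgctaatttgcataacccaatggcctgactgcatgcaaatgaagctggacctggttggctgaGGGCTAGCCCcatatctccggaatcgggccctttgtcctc

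All 10 genes matched the promoter table, with 13 windows in all. A half-site on either strand was present in 5 of the 13 windows, the fifth being that of Trp53, and in 7.13% of all 32851 windows of that length. The Cdkn1a window belongs to the more upstream of its 2 listed starts and held 2 half-sites. The core of the AHR response element, GCGTG on either strand, was present in 8 of the 13 windows and in 28.2% of all windows. It occurred in 1 window each of Mdm2, Ccng1, Cdkn1a, Cdkn1b, Cdkn2a, Cdkn2b, Cdkn2c and Gadd45b. Windows were not matched for GC content, which ran from 42.8% to 78.4% in the 13, and enrichment was not tested. The hypoxia response core, ACGTG on either strand, was present in 2 of the 13, those of Cdkn2c and Gadd45b, and in 16.6% of all. The 3 motifs were scored independently, and no 2 of them shared bases in these windows. A match describes letters in a window, and binding was not measured.

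Depth ran from 22303270 to 25329421 recovered reads in the libraries labelled female and from 27811890 to 31189363 in those labelled male. Each of the 10 genes had at least 139 reads in every library. Xist, the RNA of X inactivation, was at 234 to 324 normalized read counts in the libraries labelled female and at 0.124 to 0.458 in those labelled male. The Y-linked genes Ddx3y, Uty, Eif2s3y and Kdm5d were nevertheless present in every library labelled female, from 17.6 for Kdm5d to 57.7 for Ddx3y. Ddx3y and Uty stood at 91.5% and 89.6% of the male mean, overlapped between the groups and were not called (limma adjusted p 0.657 and 0.342), whereas Eif2s3y and Kdm5d stood at 51.3% and 54.8% and were called lower (limma adjusted p 5.76e-06 and 0.000129). This goes against the label, and each direction below is that of libraries labelled female against libraries labelled male. Male 4 stood apart within its group, with 7.65% of the 12568 tested genes differing from both other male libraries by over 0.5 on the log2 scale, against at most 1.07% for any other library. Those genes included Mdm2, Cdkn2b, Cdkn2c and Gadd45b, so their values are given with and without male 4.

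Markers of cell types also differed between the groups, in a table where 69.3% of all tested genes were called, 34.6% higher and 34.6% lower. Of 15 endothelial markers 12 were tested, 10 were lower and 1 was higher in the female libraries, with summed levels of 1208 to 1264 against 2303 to 2417 in the male libraries. Pecam1, which encodes the CD31 used to select the cells, was at 73.5 to 74.5 in the female and at 391 to 423 in the male libraries, a log2 difference of -2.44 (limma adjusted p 2.04e-08). The one endothelial marker called higher was Eng, the TGF-beta co-receptor endoglin (log2 difference 0.40). Of 15 stellate, fibroblast and mural markers 13 were tested, 5 were higher and 8 lower, with sums of 3570.4 to 4287 (female) and 2919 to 3750.1 (male). Within these sums single genes differed in opposite directions. The contractile genes Acta2 (1513 to 1887 against 45.9 to 134), Tagln (900.3 to 1179 against 32.5 to 83.6) and Myh11 (103 to 147 against 1.41 to 1.79) were higher in the female libraries. The growth factor gene Hgf (0.712 to 0.955 against 33.0 to 46.3), the PDGF receptor gene Pdgfrb (mean 14.3 against 133) and the collagen gene Col3a1 (205 to 242 against 1115 to 1553) were lower. Of 8 cholangiocyte and mesothelial markers 7 were tested, 4 were higher and 3 lower, with sums of 879.5 to 965 (female) and 1654 to 2505 (male). The lower genes were Spp1 (342 to 424 against 930 to 1608), Krt19 (97.8 to 138 against 407 to 498) and Sox9 (58.4 to 74.5 against 297 to 397). The cholangiocyte keratin gene Krt7 was higher instead (8.31 to 10.9 against 1.30 to 2.61, limma adjusted p 3.66e-05). The mesothelial genes of this list were higher: Msln was at 299 to 358 against 17.1 to 20.6, Wt1 at 11.7 to 13.6 against 0.0829 to 0.114, and Upk3b at 1.37 to 4.65 against 0 in every male library. Wt1 and Upk3b, like Vwf and Robo4 among the endothelial and Hgf and Lum among the stellate markers, passed the filter on low values (1 or more in 3 libraries) only through the group where they were high. They are included in the counts above, and without them 8 endothelial markers were lower and 1 higher, 6 stellate, fibroblast and mural markers lower and 5 higher, and 3 cholangiocyte and mesothelial markers lower and 2 higher. The 6 listed hepatocyte markers summed to 1.22 or less, with Cyp3a11 at 0 in every library. The 6 listed leukocyte markers summed to 13.2 to 15.8 (female) and 7.51 to 9.99 (male), with Ptprc at 0 in the male libraries. Both that were tested, the macrophage genes Cd68 (log2 difference 0.48, limma adjusted p 0.00479) and Csf1r (0.56, limma adjusted p 0.0101), were called higher. The part of these differences in the results below was not tested, and in bulk RNA fewer cells of a type and less RNA per cell cannot be told apart.

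The female libraries had more Trp53, Ccng1, Cdkn2a and Cdkn2b RNA and less Cdkn1a, Cdkn1b, Cdkn2c, Gadd45a and Gadd45b RNA than the male libraries. The increases were from 1.44-fold (Trp53) to 2.36-fold (Cdkn2b), and the decreases from 1.83-fold (Cdkn2c) to 5.14-fold (Cdkn1b), as ratios of the group means. Mdm2 did not pass the test. Of the 10 genes, 4 were called higher and 5 lower (limma on log2(value + 1), Benjamini-Hochberg adjusted p under 0.05), where 34.6% of all tested genes were called higher and 34.6% lower. The 9 of 10 called compare with 69.3% of all 12568 tested genes, and the 9 of 10 whose groups did not overlap with 74.1%. The median log2 difference was -0.25 for the 10 genes and 0.01 for all tested genes. A difference between these groups was thus common in the whole table, and the sizes and directions below carry the description. Cdkn1b had a larger absolute log2 difference than 96.2% of tested genes, Gadd45b than 92.3% and Cdkn2b than 85.6%, whereas Trp53 exceeded 55.5%.

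**Figure D1:**
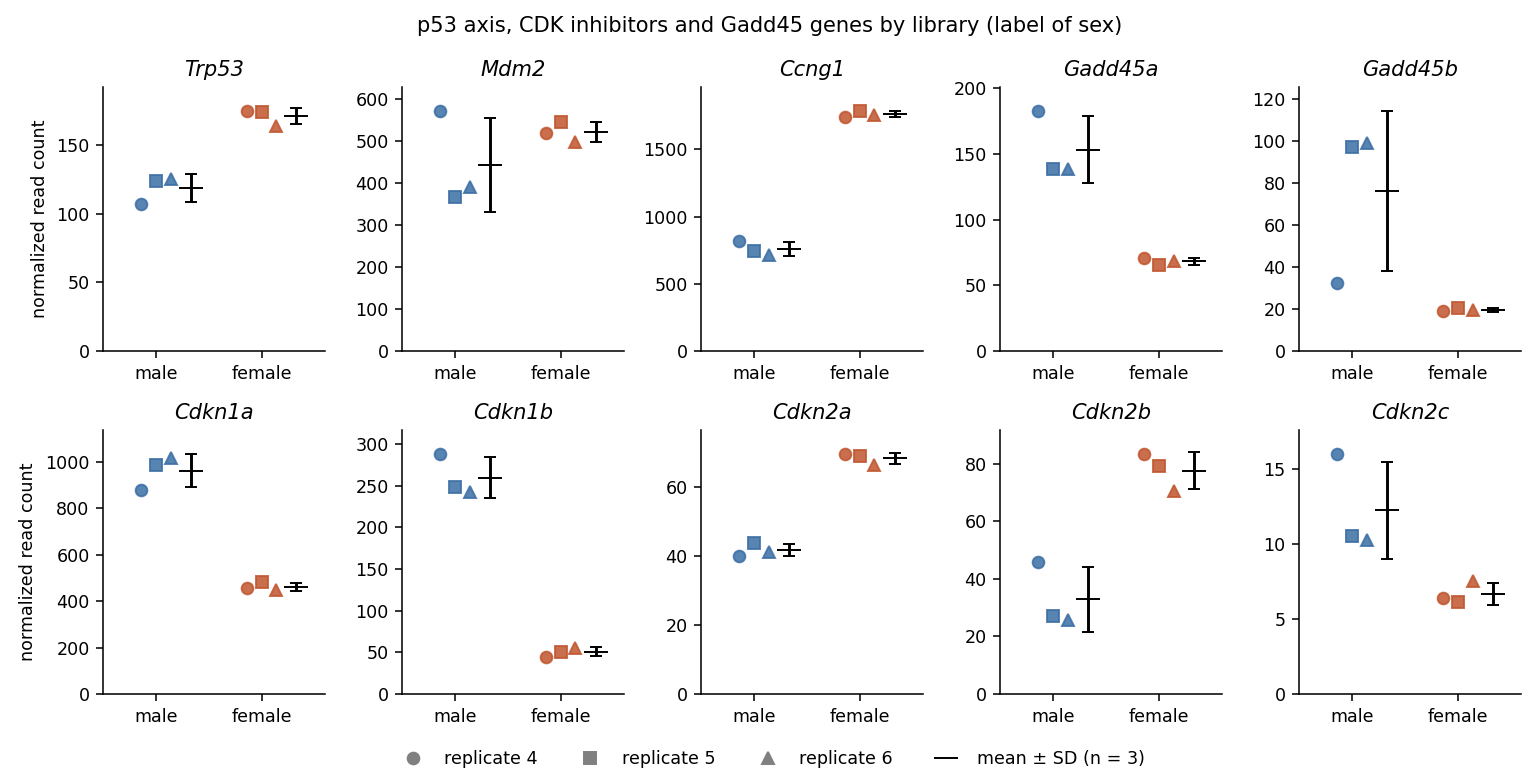
Normalized read counts (vertical axes, each from 0) of the 10 genes in the 3 libraries labelled male (blue) and the 3 labelled female (orange), with the replicate number as the symbol and the mean ± SD as bars. The groups are apart for 9 genes and overlap for Mdm2, where male 4 at 571 lies above the 3 female libraries.

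Trp53 (chromosome 11), the transcription factor gene itself, was at 107, 124 and 125 normalized read counts in male 4, 5 and 6 and at 175, 174 and 164 in female 4, 5 and 6. All female libraries were above all male libraries, by a log2 difference of 0.52 (SE 0.07, limma adjusted p 0.000299). Of its distinct 50-mers 3.88% also occur in transcripts of other genes, mainly the pseudogene Trp53-ps, so a small part of its reads is uncertain.

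Mdm2 (chromosome 10), the inhibitor and target of p53, was at 571, 366 and 391 in male 4, 5 and 6 and at 520.1, 547 and 498 in the female libraries. Male 4 was the highest of all 6 libraries, while male 5 and male 6 were the lowest. The log2 difference was 0.26 with a 95% interval of -0.08 to 0.61 (limma adjusted p 0.152). Without male 4 it was 0.46 (SE 0.05, limma adjusted p 2.92e-05), with 2 male libraries left, and Mdm2 was then called higher. The ratio of Mdm2 to Trp53 reads, compared here between libraries and not corrected for gene length, was 5.32 in male 4, 2.95 and 3.13 in male 5 and male 6, and 2.98 to 3.15 in the female libraries.

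Ccng1 (chromosome 11), which encodes cyclin G1 and is a direct p53 target, was at 817, 743 and 717 in the male libraries and at 1738, 1783 and 1758 in the female libraries. The female values were close together, each above every male value by more than the spread of either group, with a log2 difference of 1.21 (SE 0.07, limma adjusted p 1.70e-06). The ratio of its reads to Trp53 reads was 5.72 to 7.61 in the male and 9.95 to 10.7 in the female libraries.

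Cdkn1a (chromosome 17), the p53 target that encodes p21, went the other way. It was at 881, 987 and 1016 in the male libraries and at 458, 482 and 448 in the female libraries, where every value was lower than any male value, with a log2 difference of -1.05 (SE 0.07, limma adjusted p 4.58e-06). Within each library, a measure that does not depend on scaling, the ratio of Cdkn1a to Ccng1 reads was 1.08, 1.33 and 1.42 in male 4, 5 and 6. In the female libraries the ratio was 0.264, 0.270 and 0.255, below every male value. With 3 libraries against 3, an exact two-sided permutation test of such a ratio cannot go below p = 0.10, and it gave 0.10.

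Gadd45a (chromosome 6), a p53-induced gene whose product binds PCNA and CDK1, was at 182, 138 and 138 in the male libraries and at 70.5, 65.4 and 68.9 in the female libraries. The groups did not overlap, male 4 was the highest library, and the log2 difference was -1.14 (SE 0.11, limma adjusted p 2.83e-05). Its exons overlap those of the opposite-strand gene E230016M11Rik over 337 bases, and those of Cdkn1a overlap an opposite-strand gene over 273 bases. As no source used here says whether counting used strand, a share of these reads cannot be assigned.

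Gadd45b (chromosome 10), an immediate stress gene that responds to NF-kB and TGF-beta, had the largest SE among the 10 log2 differences. It was at 32.2 in male 4 but at 97.2 and 98.7 in male 5 and male 6, against 18.8, 20.5 and 19.5 in the female libraries. Every male library was above every female one. The log2 difference was -1.74 (SE 0.37, limma adjusted p 0.00310) and, without male 4, -2.26 (SE 0.06, limma adjusted p 2.71e-09). The third gene of the family, Gadd45g, was lowest in male 4 as well (13.5 against 37.2 and 38.2) and was at 17.3 to 22.2 in the female libraries. Its groups overlapped and it was not called (log2 difference -0.44, limma adjusted p 0.275), but it was called lower without male 4 (-0.92, limma adjusted p 2.05e-05).

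**Figure D2:**
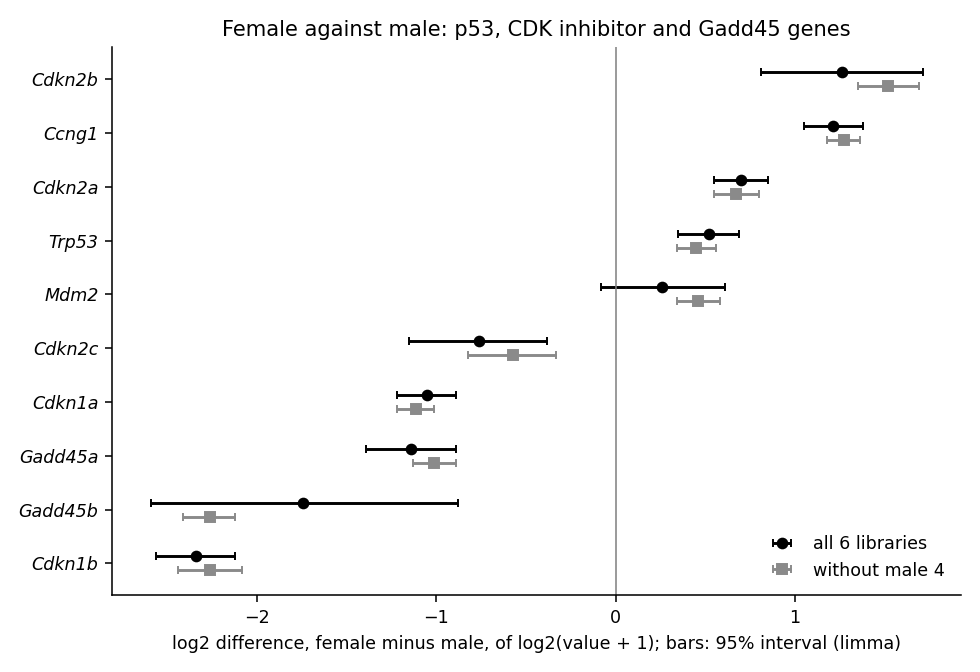
Log2 difference of female minus male on the log2(value + 1) scale (horizontal axis) with its 95% interval from limma, for all 6 libraries (black) and without male 4 (grey). Only the interval of Mdm2 (-0.08 to 0.61) includes 0 with all 6 libraries, and all 10 intervals exclude 0 without male 4.

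Among the Cip/Kip inhibitors, Cdkn1b (chromosome 6) encodes p27 and is controlled largely by protein degradation and FOXO factors. With all 6 libraries it had the largest log2 difference of the set. It was at 288, 249 and 242 in the male libraries and at 45.0, 50.7 and 55.8 in the female libraries. The female mean of 50.5 ± 5.41 was 19.5% of the male mean of 259.5 ± 24.7 (SD, n = 3). The log2 difference was -2.34 (SE 0.10, limma adjusted p 2.86e-07). Without male 4 it was -2.26 for Cdkn1b and -2.26 for Gadd45b. Cdkn1c (p57), the third gene of this family and an imprinted one, was higher instead, at 20.4, 24.1 and 27.4 against 19.5, 17.0 and 16.2 (log2 difference 0.42, limma adjusted p 0.0138). This call was lost without female 6 (0.33, limma adjusted p 0.0525). The Cip/Kip genes therefore did not share a direction: Cdkn1a and Cdkn1b fell and Cdkn1c rose.

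The Ink4 genes were divided as well. Cdkn2a (chromosome 4), whose value sums transcripts for the Ink4a and Arf proteins and cannot separate them, was at 40.2, 43.8 and 41.4 in the male libraries and at 69.6, 69.2 and 66.5 in the female libraries. The groups were far apart relative to their spread, with a log2 difference of 0.70 (SE 0.06, limma adjusted p 2.28e-05). Its neighbour on chromosome 4, Cdkn2b, a TGF-beta-induced inhibitor of CDK4 and CDK6, was at 45.8, 27.0 and 25.8 (male) and 83.2, 79.0 and 70.4 (female). Here male 4 was above the other male libraries but below all female ones. The log2 difference was 1.26 (SE 0.20, limma adjusted p 0.000522) and, without male 4, 1.52. Cdkn2a and Cdkn2b shared no 50-mer with each other or with any other gene in the annotation.

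Cdkn2c (chromosome 4), which encodes the inhibitor p18, had the lowest read counts of the set. It was at 16.0, 10.5 and 10.2 in the male libraries and at 6.39, 6.14 and 7.50 in the female libraries, without overlap. The log2 difference was -0.76 (SE 0.17, limma adjusted p 0.00362) and, without male 4, -0.57 (limma adjusted p 0.000999). Cdkn2d, the remaining Ink4 gene, was lower too, at 7.39, 7.74 and 7.98 against 22.6, 24.3 and 25.4 (log2 difference -1.53, limma adjusted p 1.75e-06). Cdkn2a and Cdkn2b thus rose while Cdkn2c and Cdkn2d fell.

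To order the levels of the genes, values were divided by length, as normalized read counts per kb of the longest coding transcript (895 to 4552 bases). In the male libraries the mean levels per kb ran from Cdkn1a (462 ± 34.2), Ccng1 (216 ± 14.9), Mdm2 (141 ± 35.6) and Gadd45a (125 ± 20.8) down to Trp53 (63.7 ± 5.36), Gadd45b (59.2 ± 29.6), Cdkn1b (57.0 ± 5.42), Cdkn2a (46.7 ± 2.02), Cdkn2b (23.6 ± 8.09) and Cdkn2c (4.95 ± 1.31; SD, n = 3). The ranges of Mdm2 and Gadd45a overlapped, as did those of Trp53 and Cdkn1b, and that of Gadd45b spanned Trp53, Cdkn1b, Cdkn2a and part of Cdkn2b. In the female libraries Ccng1 came first (501 ± 6.44), then Cdkn1a (222 ± 8.34), Mdm2 (166 ± 7.80), Trp53 (91.5 ± 3.13), Cdkn2a (76.5 ± 1.90), Gadd45a (55.8 ± 2.13), Cdkn2b (55.8 ± 4.71), Gadd45b (15.3 ± 0.654), Cdkn1b (11.1 ± 1.19) and Cdkn2c (2.70 ± 0.293; SD, n = 3). Only Gadd45a and Cdkn2b had overlapping ranges there. Cdkn1a was the most abundant CDK inhibitor of the set per length and Cdkn2c the least in both groups, while Cdkn1b moved from above Cdkn2a and Cdkn2b to below both.

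**Figure D3:**
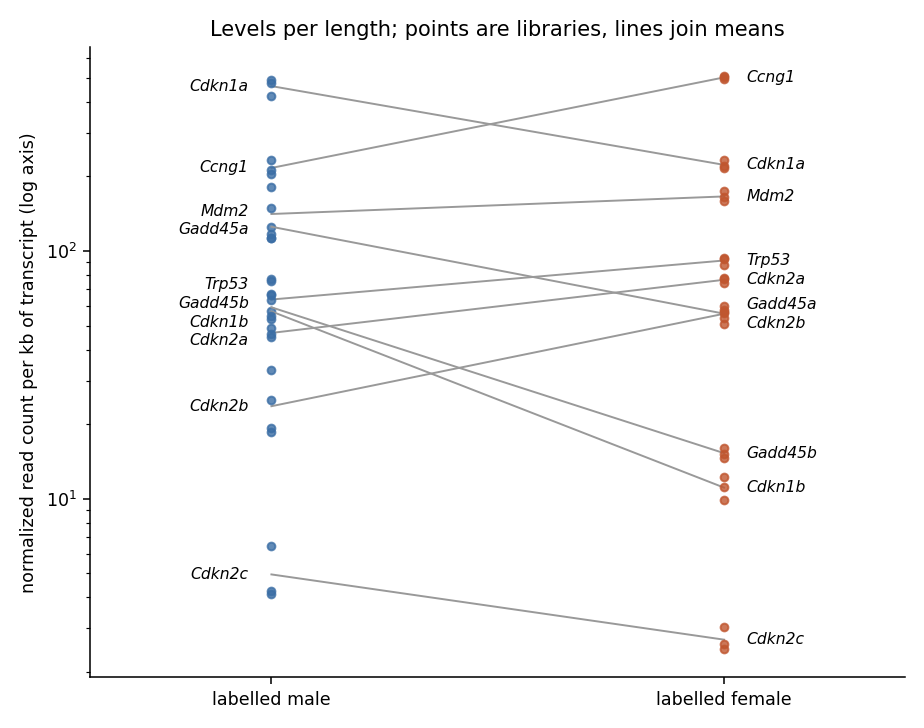
Normalized read count per kb of the longest coding transcript (log axis) of the 10 genes in each library, with lines joining the group means. Cdkn1a leads in the libraries labelled male (462) and Ccng1 in those labelled female (501), and the lines of Cdkn1b and Gadd45b cross those of Cdkn2a and Cdkn2b.

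Other genes of the pathway were read from lists. Of 34 further p53 target genes 33 were listed and tested, 17 were called higher, 11 lower and 5 not, with a median log2 difference of 0.19. That is 84.8% called, against 69.3% of all tested genes, and each list count that follows stands against the same 69.3%, with 34.6% in each direction. Perp, a membrane protein of desmosomes and apoptosis, was at 132 to 146 (female) against 16.0 to 17.3 (male), 8.43-fold higher as a ratio of means (limma adjusted p 2.04e-08). Thbs1, the antiangiogenic matrix protein thrombospondin 1, rose by 2.73 and Plk2, a polo-like kinase, by 1.75 on the log2 scale. Ddit4, an mTOR inhibitor that hypoxia also induces, fell by 3.83 on that scale, from 788 to 1436 (male) to 78.5 to 79.7 (female), and Cd82 and Sesn2 fell by 1.63 and 1.04. The apoptosis genes Pmaip1 (1.27) and Bbc3 (-0.86), named after their values were seen, moved in opposite directions. A list with 17 higher and 11 lower genes holds many such pairs.

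Of 19 p53 regulators 16 were listed and tested, 4 were called higher, 4 lower and 8 not, with a median log2 difference of 0.11. The kinase gene Atr (log2 difference 1.33), the p53-binding Trp53bp2 (0.90) and the deacetylase gene Sirt1 (0.59, not called without female 4 or female 5) were higher, and the ubiquitin ligase gene Rchy1 (-0.93), the acetyltransferase gene Kat5 (-0.68) and Trp53bp1 (-0.61) were lower. Mdm4, the partner of Mdm2, named after its values were seen, was at 45.6 to 51.4 (female) and 49.6 to 54.2 (male) and was not called. Without male 4, 8 regulators were called higher, with Usp7, Atm, Ep300 and Ppp1r13l added, so this count depends on that library.

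The G1 cell cycle was read from 21 genes, mainly of cyclins, CDKs, RB and E2F proteins, all tested. Of these, 11 were called higher, 5 lower and 5 not (median log2 difference 0.51). Higher genes included E2f7 (1.25), Cdk6 (1.03) and the D-type cyclin gene Ccnd2, at 1192 to 1208 (female) against 546 to 719 (male), a log2 difference of 0.97. E2f1 (-0.60), Rbl1 (-0.51) and E2f2 (-0.41) were lower. E2f2, at 0.664 to 0.902 in the female libraries, passed the filter on low values only through the male group, and without it 4 genes of the list were called lower. Over the whole list, the count of lower genes was 3 in each fit without male 5, male 6, female 4 or female 5, where Cdk2 was no longer called and E2f2 either was not called or, in the fits with 2 male libraries, was below the filter on low values. Of 16 proliferation markers, 3 were higher, 8 lower and 5 not called (median -0.16). Mki67 (1.23), Tyms (0.52) and Bub1 (0.36) were higher, and Aurkb (-0.77), Plk1 (-0.58) and Top2a (-0.41) were lower.

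Of 15 regulators of the Ink4-Arf locus 14 were tested, 4 were called higher and 6 lower (median 0.00). Id1 (1.63), an inhibitor of the transcription of Cdkn2a, and the Polycomb genes Cbx2 (1.03) and Ezh2 (1.02) were higher, and the activators Ets2 (-3.31) and Ets1 (-1.09) and the Polycomb gene Cbx7 (-1.22) were lower. Ets2 was at 47.0 to 50.2 (female) against 418 to 554 (male). Of 17 senescence-associated genes, all tested, 8 were called higher and 7 lower (median -0.02), 88.2% against the 69.3% of all tested genes. Igfbp5, one of the 7, passed the filter on low values only through the male group, and without it 6 were lower. Uchl1 (3.18), Il6 (2.62) and Mmp13 (2.35) were higher, while Mmp3 (-1.88), Cxcl1 (-1.84) and Glb1 (-1.14), the gene of lysosomal beta-galactosidase, were lower. Among the secreted factors, Il6 was at 30.7 to 31.4 (female) against 3.23 to 4.96 (male) and Cxcl1 was at 69.6 to 79.6 against 265 to 278. Without male 6, 4 senescence genes were called lower, Hmgb1 being among those not called and Igfbp5 being below the filter.

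**Figure D4:**
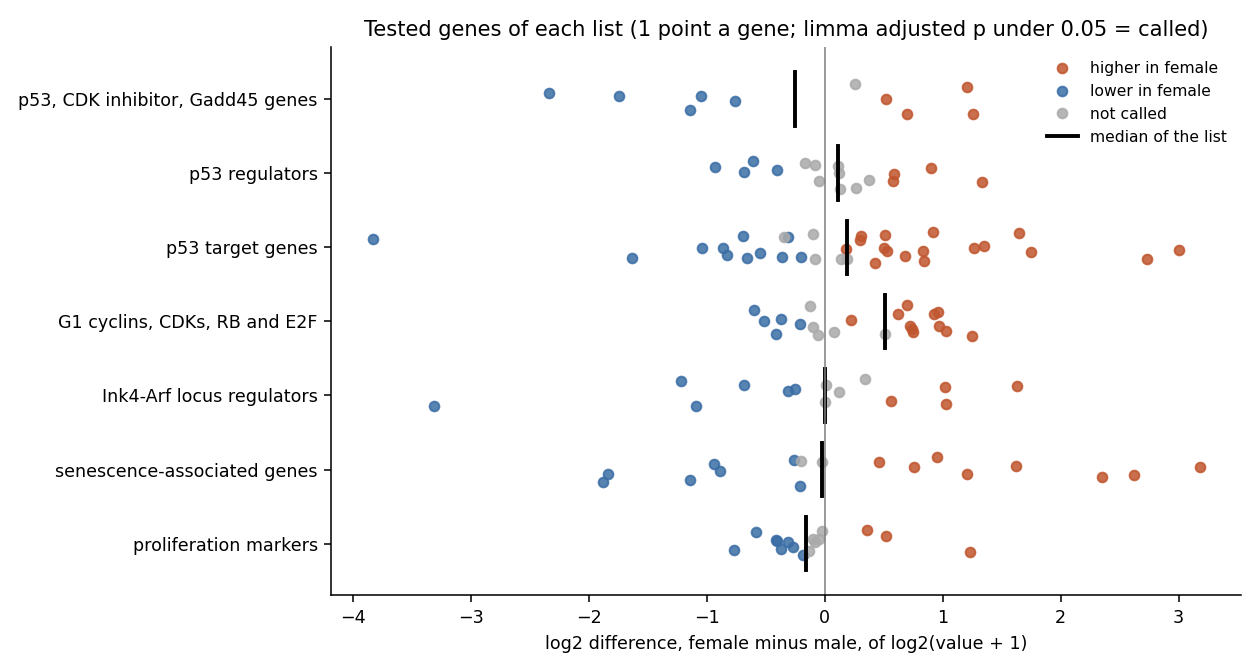
Log2 difference of female minus male on the log2(value + 1) scale (horizontal axis) for each tested gene of 7 lists, coloured by whether it was called higher, lower or not, with black bars at the list medians. Every list has genes on both sides of 0, and the medians lie between -0.25 and 0.51.

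Of the 10 genes, 6 had a false discovery rate under 0.05 in the authors' deposited table, against 25.8% of the 13595 genes there. These were Cdkn1a, Cdkn1b, Cdkn2b, Ccng1, Gadd45a and Gadd45b, all in the direction found here. The authors' deposited table gave Trp53, Cdkn2a and Cdkn2c, which were called here, false discovery rates of 0.112, 0.108 and 0.125, and Mdm2 a rate of 0.684.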

How the data were processed

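Poly(A) RNA was sequenced from 6 libraries, per the labels' protocols. The signal values deposited by the authors are normalized read counts. In every column 100% of them were whole multiples, within 1e-06, of the smallest value above 0, as whole reads divided by 1 factor per library would be. How the values were made is not given in the sources used here, and the read counts recovered rest on this pattern. Bowtie2, RSEM, edgeR and genome build mm39 are listed, with no role or order, in the submitters' processing notes. Besides these, the table holds the authors' own comparison of the sexes: a signed fold change (a score column, per the file headers), a p-value and a false discovery rate (both p-value columns, per the file headers). Titles gave each column its sample, and 0 value columns remained without one.

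limma 3.58.1 in R 4.3.3 (eBayes, intensity trend) was fitted to log2(value + 1) over genes that reached a value of 1 in 3 or more libraries, which left 12568 genes and all 10 genes of interest. This scale understates the change of weakly read genes. Alternatives were edgeR 4.0.16 and DESeq2 1.42.0 on the recovered reads, RLE factors, quantile normalization, other filters (none, or 10 reads in every library), a pseudocount of 0.1, the replicate block, and each library left out. The scripts were tested on simulated data. Intervals cover 95%. The genes and lists were chosen with earlier results of these data known. The 10 genes, Cdkn1c, Cdkn2d and Gadd45g are named whatever their values, Pecam1, Xist and 4 Y-linked genes as checks of the labels, and from other lists up to 3 genes per direction with the largest called difference, provided the groups were apart and the mean was 1 or more. Krt7, like Pmaip1, Bbc3 and Mdm4, was named outside this rule, after its values were seen. Some other genes were named only for absent reads, for how they met the filter on low values or for changed calls. Chromosomes, transcript lengths and shared 50-mers come from GENCODE M21 (GRCm38) by symbol.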

Additional observations from a re-analysis of the deposited data

How the results depend on the processing

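Of 140 log2 differences recomputed for the 10 genes under 8 alternatives with all 6 libraries and 6 fits that left out 1, 138 kept their direction and their side of the threshold. The other 2 were of Mdm2, called higher under quantile normalization (0.32, limma adjusted p 0.0497) and without male 4 (0.46, limma adjusted p 2.92e-05); the cause was not tested. Usp7, Atm, Ep300, Ppp1r13l, Cdk2, Hmgb1 and Igfbp5, whose call or testing changed between fits, are not in the count that follows. For 64 of the other genes named in the text, 870 of 878 values kept direction and call. The other 8 were of Cdkn1c, Gadd45g, Sirt1, E2f2 and Ddx3y, where Ddx3y, not called with all libraries (-0.09), ran from -0.21 to 0.13 with 1 library left out and turned positive without male 5, and E2f2 was not called by DESeq2 (-0.81, adjusted p 0.0523) or without female 4 or female 5, and could not be fitted in 3 of the fits, being below the filter, as Xist, Hgf, Wt1 and Upk3b were in some fits. Across all settings Mdm2 ran from 0.14 to 0.46, Gadd45b from -2.26 to -1.47 and Cdkn2b from 1.11 to 1.52. Under edgeR and DESeq2 on recovered reads, 9 of the 10 genes were called, as with limma. Same-numbered libraries of the 2 sexes did not deviate together (correlations -0.09, -0.03 and -0.17), so the numbers were not taken as pairs, and with the replicate block 9 of the 10 genes and 8314 of all genes were called, against 8704. Leaving out 1 library gave from 7373 to 9113 genes, and 9 or 10 of the 10. Among the lists, 8 p53 regulators were called higher under quantile normalization, against 4; the cause was not tested. Leaving out 1 library moved that count between 3 and 8, the lower calls of the G1 list between 3 and 5 and those of the senescence list between 4 and 7. The depth behind Mdm2 was at least 9610 reads in every library, and the SE of its log2 difference was 0.15 with all libraries and 0.05 without male 4.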
